A study of Mus musculus with 6 samples.

Results

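The genes described here are 10 early-response feedback genes: the MAP kinase phosphatases Dusp1, Dusp2, Dusp5 and Dusp6, the mRNA-decay factors Zfp36, Zfp36l1 and Zfp36l2, and the immediate-early response genes Ier2, Ier3 and Ier5. They were taken by symbol, and all 10 were found among the 17500 genes of the authors' table for the whole series and passed the filter on low counts that left 15610 genes for testing. They were measured by bulk RNA-seq in long-term hematopoietic stem cells (LT-HSCs), the rare marrow cells that sustain blood formation. The cells came from wild-type male C57/Bl6 mice aged 22 to 24 months and were sorted as Lin-, Sca1+, cKit+, CD48- and CD150+. CD61High is the 10% of these cells with the most surface CD61 (integrin beta 3) and CD61Low the 10% with the least, 5000 cells each. The titles give 1 library of each gate from each of 3 mice, so the 6 libraries form 3 pairs, although the sorting protocol mentions pooled cells. All animals were old and untreated, so the data hold a comparison of gates within old mice and none of age.

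MAP kinases carry signals from cytokine and stress receptors to the nucleus, and each wave of signalling induces the genes that end it. DUSP phosphatases remove the activating phosphates of MAP kinases. DUSP1 and DUSP2 are nuclear and act on ERK, p38 and JNK to varying degrees, DUSP5 is a nuclear phosphatase of ERK, and DUSP6 is its cytoplasmic counterpart. ZFP36 (tristetraprolin) and its relatives ZFP36L1 and ZFP36L2 are zinc finger proteins that bind AU-rich elements in the 3′ ends of short-lived mRNAs and bring in the CCR4-NOT deadenylase. IER2 and IER5 are nuclear proteins of the early response, both tied to the phosphatase PP2A, and IER3 modulates ERK signalling and cell survival. In blood stem cells these genes are known as readouts of recent signalling, and they can also be induced while cells are handled.

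The control sequences are shown first because they divide the set. RefSeq promoter windows on GRCm38.p6, 250 bases before to 50 bases after the start site, were at hand for 8 of the 10 genes. Ier2 and Zfp36l2 had no window and were not searched. Printed 5′ to 3′ on the gene's strand, with motif matches in capitals, are the windows of Dusp1 (chr17:26508423-26508722, minus strand), Dusp5 (chr19:53528895-53529194, plus strand) and Zfp36 (chr7:28379179-28379478, minus strand), which hold the full cAMP response element and the serum response motifs found in the set.
Dusp1: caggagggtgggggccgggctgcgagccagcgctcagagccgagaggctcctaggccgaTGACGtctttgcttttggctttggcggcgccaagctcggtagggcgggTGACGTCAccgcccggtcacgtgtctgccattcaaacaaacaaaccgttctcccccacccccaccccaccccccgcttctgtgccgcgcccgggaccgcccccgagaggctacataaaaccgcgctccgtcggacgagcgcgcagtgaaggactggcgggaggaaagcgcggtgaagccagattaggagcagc
Dusp5: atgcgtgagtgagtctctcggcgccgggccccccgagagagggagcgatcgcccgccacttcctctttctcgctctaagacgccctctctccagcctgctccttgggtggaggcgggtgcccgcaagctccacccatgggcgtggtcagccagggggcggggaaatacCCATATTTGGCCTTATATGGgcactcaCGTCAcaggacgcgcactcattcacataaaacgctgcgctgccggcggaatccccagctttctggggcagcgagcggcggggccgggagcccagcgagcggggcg
Zfp36: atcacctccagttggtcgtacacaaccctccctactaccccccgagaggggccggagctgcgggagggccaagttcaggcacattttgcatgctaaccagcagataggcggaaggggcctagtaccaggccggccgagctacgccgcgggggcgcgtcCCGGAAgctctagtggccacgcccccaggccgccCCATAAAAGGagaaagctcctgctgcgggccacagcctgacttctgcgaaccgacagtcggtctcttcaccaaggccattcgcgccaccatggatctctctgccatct

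Each of 6 motifs was searched on both strands, and a position is that of a match's first base, with the start site as 0. The cAMP response element TGACGTCA was found in the Dusp1 window at position -143 and in 1.79% of all promoter windows. Its core TGACG, which is part of that element, also stood at -191 in Dusp1 and was found in Dusp2 and Dusp5, against 20.8% of all windows. The CArG box, the site of serum response factor, occurred as 2 adjoining copies in Dusp5, at -82 and -72, and as 1 copy in Zfp36, at -58. It was present in 1.63% of all windows. The ETS core CCGGAA (14.9% of windows) was found in Zfp36 only among the 8 genes, while the AP-1 motif TGANTCA (7.81%) and TATAAA (13.6%) were found in Zfp36l1 only. The windows of Dusp6, Ier3 and Ier5 held none of the 6. These matches describe letters in a window and not binding.

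The 3′ UTRs were searched for TATTTAT, the core of the AU-rich element that ZFP36 proteins bind, in the GENCODE M21 transcript with the longest 3′ UTR of each gene. It was found in 6 of the 10 genes, against 29.0% of 19921 genes. Ier3 held 4 copies in 613 bases, Zfp36 3 in 774, Dusp1 3 in 690, Zfp36l2 3 in 1822, Zfp36l1 3 in 1835 and Dusp2 1 in 581. Among genes with a 3′ UTR of 0.8 to 1.25 times the same length, as many copies or more were found in 0.7% for Ier3, 1.23% for Zfp36 and 1.34% for Dusp1. The share was 4.27% for Zfp36l2, 4.31% for Zfp36l1 and 15.6% for Dusp2. All 3 ZFP36 genes thus carry the element that their own products bind, and Dusp5, Dusp6, Ier2 and Ier5 held no copy. One site of each gene, with TATTTAT in capitals, is shown 5′ to 3′ on the gene's strand (GRCm38), since these elements divide the set.
Dusp1, chr17:26506162-26506184, minus strand: ctggtcctTATTTATttaacacc
Dusp2, chr2:127338307-127338329, plus strand: gcactttaTATTTATatagaaca
Zfp36, chr7:28376969-28376991, minus strand: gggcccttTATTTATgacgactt
Zfp36l1, chr12:80108425-80108447, minus strand: tcaaaacgTATTTATtgccaaac
Zfp36l2, chr17:84184917-84184939, minus strand: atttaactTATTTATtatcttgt
Ier3, chr17:35822484-35822506, plus strand: ctaattaaTATTTATgTATTTAT

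The genes are also compact. Their transcripts have 1 to 4 exons, with 1 exon in Ier2 and Ier5, 2 in Dusp6, Ier3 and the 3 ZFP36 genes, and 4 in Dusp1, Dusp2 and Dusp5, whereas the median over 19921 genes was 7 exons and 33.2% had at most 4.

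The libraries held between 21354130 and 26398090 reads assigned to genes. All 12 LT-HSC markers examined, such as Procr, Hlf and Mecom, were detected in every library. Their summed share of counts was 0.224% and 0.151% in CD61High and CD61Low of mouse 2. It was 0.460% and 0.613% in mouse 1, and 0.470% and 0.639% in mouse 3. Of the 12, 5 (Procr and Hlf among them) were lower and 2 higher in CD61High in 3 of 3 mice. All 20 neutrophil markers, such as Ngp and S100a8, were lower in CD61High in 3 of 3 mice. In CD61High they took 0.693%, 8.33% and 0.0804% of the counts of mice 1, 2 and 3, and in CD61Low 2.55%, 13.4% and 0.267%. The libraries of mouse 2 therefore stand apart, and results are also given without them. Erythroid genes took 1.79% and 3.07% in mouse 2 and 0.312% to 0.554% elsewhere, with 11 of 13 lower in CD61High in 3 of 3 mice. B lineage (8 of 14 lower in 3 of 3 mice), monocyte and dendritic cell (9 of 12), T and NK cell (5 of 12) and eosinophil, basophil and mast cell markers (5 of 12) each stayed at or under 0.252% in every library. Of the 12 megakaryocyte markers, 7 were higher in CD61High in 3 of 3 mice. Among all genes tested, 24.7% were lower and 20.6% higher in 3 of 3 mice.

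The question was whether the feedback genes differ between LT-HSCs with high and low surface CD61. The 10 genes were chosen with earlier results of these data known, so counts set against all genes describe them and test no excess. Levels are given as CPM, which are counts relative to library size after TMM factors, a correction for differences in RNA composition. Levels were lower in CD61High in 3 of 3 mice for 7 of the 10 genes, Dusp1, Dusp2, Dusp5, Zfp36, Zfp36l1, Ier2 and Ier3, against 24.7% of all genes tested, and none of the 10 was higher in 3 of 3, against 20.6%. For 4 genes, Dusp5, Zfp36, Ier2 and Ier3, every CD61High library lay below every CD61Low library, against 5.71% of all genes. The median log2 fold change, CD61High over CD61Low, was -0.56 for the 10 genes and -0.05 for all genes tested. None of the 10 passed edgeR's quasi-likelihood test at a Benjamini-Hochberg adjusted p under 0.05, and neither did any of the 15610 genes (0%, lowest adjusted p = 0.652). At an unadjusted p under 0.05 the same 4 genes were lower, against 3.00% of all genes.

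The 2 libraries of a mouse share the animal, and with the mouse as a block the standard errors of 9 of the 10 genes were smaller. The log2 fold change moved most in Ier5, from -0.54 to -0.33, and in Zfp36l2, from -0.46 to -0.35. With the block edgeR called 40 genes (0.256%), none of them among the 10, and the median of the 10 was -0.56 against -0.02 over all genes. Zfp36 and Dusp1 lay nearest to the call, at adjusted p of 0.0512 and 0.0588. At an unadjusted p under 0.05, 6 of the 10 were lower with the block (Dusp1, Dusp2, Dusp5, Zfp36, Ier2 and Ier3), against 12.8% of all genes. Without mouse 2, the block called Dusp1, Dusp2 and Zfp36 as lower (edgeR adjusted p = 0.0311, 0.0442 and 0.0189), against 2.93% of all genes. DESeq2 with the block called the 6 genes named above as lower, against 7.11% of all genes, and limma voom with the block called Dusp1 and Zfp36, against 2.33%. With the filter on low counts left out, edgeR with the block called Dusp1, Zfp36 and Ier2, against 1.67% of all genes. Other blocked alternatives called none of the 10. The adjusted p of Zfp36 and Dusp1 was 0.0501 and 0.0553 with factors of relative log expression, 0.0713 and 0.0693 with upper-quartile factors, and 0.156 for both with library sizes alone. It was 0.340 and 0.388 without mouse 1, and 0.161 and 0.184 without mouse 3. Each of the pair was called in 4 of 25 alternatives.

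**Figure D1:**
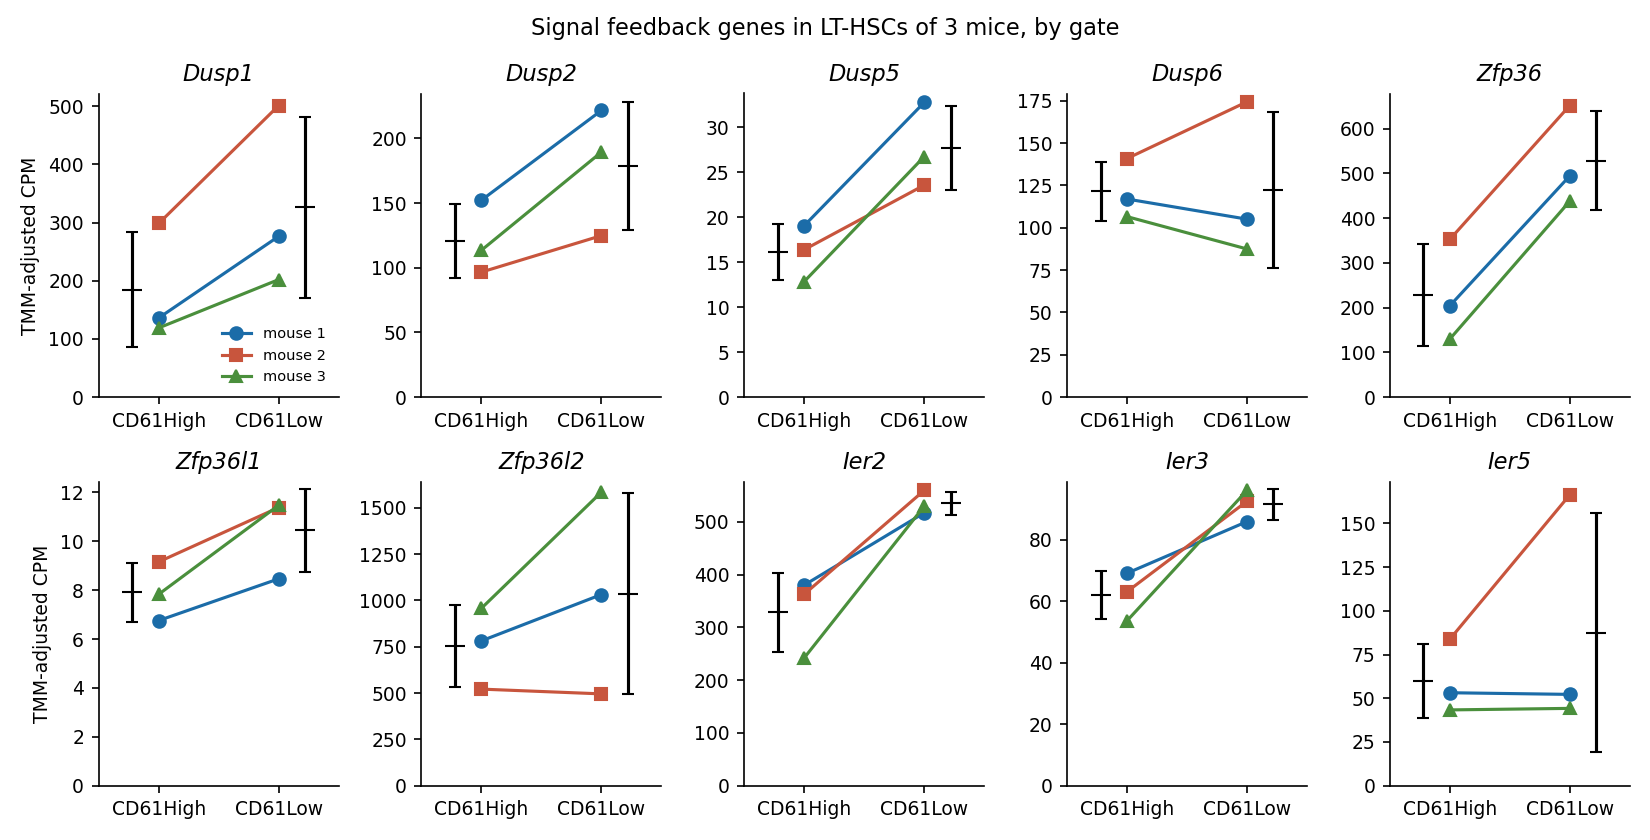
CPM (vertical axes from 0) of the 10 genes in the CD61High and CD61Low libraries, with lines joining the libraries of 1 mouse and black bars for the mean ± SD of 3 libraries. The lines of Zfp36, Ier2, Ier3, Dusp5, Dusp1, Dusp2 and Zfp36l1 go up from CD61High to CD61Low in all 3 mice, while those of Dusp6, Zfp36l2 and Ier5 do not.

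Among the phosphatases, Dusp1 (ENSMUSG00000024190.7, GRCm38 chromosome 17, 26505590 to 26562128, minus strand) had 136, 298 and 119 CPM in CD61High of mice 1, 2 and 3 and 276, 501 and 202 CPM in CD61Low. It was lower in CD61High in each pair. The libraries of mouse 2 were the highest of each gate. The gates overlapped because the CD61High library of mouse 2 lay above the CD61Low libraries of mice 1 and 3. Within mice 1, 2 and 3 it differed by -1.02, -0.75 and -0.76 on the log2 scale. The fold change was log2 -0.82 (SE 0.49, adjusted p = 0.828 in edgeR), and with the mouse as a block -0.84 (SE 0.13, adjusted p = 0.0588), or 1.80-fold higher in CD61Low. Without the block it was -0.37 when the CD61Low library of mouse 2 was left out and -1.36 when the CD61High library of that mouse was. DUSP1 is the most general of these phosphatases and acts strongly on p38 and JNK.

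Dusp2 (ENSMUSG00000027368.6, chromosome 2, 127336159 to 127338376, plus strand), a phosphatase first known from activated lymphocytes, had 152, 96.7 and 114 CPM in CD61High and 222, 125 and 190 CPM in CD61Low. Here the libraries of mouse 2 were the lowest of each gate, the reverse of Dusp1, and the gates overlapped. The differences of -0.54, -0.37 and -0.74 gave a log2 fold change of -0.56 (SE 0.28, edgeR adjusted p = 0.763), or -0.55 (SE 0.13, adjusted p = 0.0985) with the block.

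Dusp5 (ENSMUSG00000034765.6, chromosome 19, 53529109 to 53542431, plus strand), a nuclear phosphatase of ERK, had 19.1, 16.4 and 12.9 CPM in CD61High and 32.8, 23.6 and 26.7 CPM in CD61Low. The gates did not overlap. The log2 fold change was -0.78 (SE 0.24, edgeR adjusted p = 0.676), or -0.79 (SE 0.19, adjusted p = 0.0923) with the block, which is 1.73-fold higher in CD61Low. The antisense gene AC137853.2 covers 22.1% of its exon bases, where reads count for neither gene, and itself had 0.05 to 0.48 CPM.

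Dusp6 (ENSMUSG00000019960.8, chromosome 10, 99263231 to 99267489, plus strand), the cytoplasmic phosphatase of ERK, was the exception. It had 117, 141 and 107 CPM in CD61High and 105, 174 and 87.5 CPM in CD61Low. It was higher in CD61High in mice 1 and 3 and lower in mouse 2, with differences of 0.15, 0.28 and -0.31. The log2 fold change was -0.01 (SE 0.29, edgeR adjusted p = 0.995) and 0.04 (SE 0.16, adjusted p = 0.900) with the block, and it was 0.20 with the block without mouse 2 (adjusted p = 0.351).

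Of the mRNA-decay factors, Zfp36 (ENSMUSG00000044786.6, chromosome 7, 28376784 to 28380253, minus strand) showed the widest gap of the 10 genes. It had 204, 352 and 130 CPM in CD61High and 494, 652 and 438 CPM in CD61Low, so that the lowest CD61Low library lay above the highest CD61High library. The differences were -1.28, -0.89 and -1.75 in mice 1, 2 and 3. The log2 fold change was -1.21 (SE 0.39, edgeR adjusted p = 0.683), or 2.31-fold higher in CD61Low, and -1.31 (SE 0.19, adjusted p = 0.0512) with the block.

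Zfp36l2 (ENSMUSG00000045817.8, chromosome 17, 84183931 to 84187947, minus strand), a decay factor known to be needed for hematopoietic stem cells, had the highest mean CPM of the 10, though in CD61Low of mouse 2 it lay below Zfp36, Ier2 and Dusp1. It had 782, 521 and 958 CPM in CD61High and 1032, 496 and 1585 CPM in CD61Low. The difference was -0.40 and -0.73 in mice 1 and 3 and 0.07 in mouse 2, where both libraries were low. Its log2 fold change was -0.46 (SE 0.46, edgeR adjusted p = 0.926), -0.35 (SE 0.19, adjusted p = 0.340) with the block, and -0.58 (adjusted p = 0.0665) with the block without mouse 2. Leaving out the CD61Low library of mouse 3 gave -0.07, and leaving out that of mouse 2 gave -0.79, both without the block.

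Zfp36l1 (ENSMUSG00000021127.7, chromosome 12, 80107754 to 80113013, minus strand), the ZFP36 relative prominent in lymphoid progenitors, had 6.76, 9.16 and 7.83 CPM in CD61High and 8.46, 11.4 and 11.5 CPM in CD61Low. It was lower in CD61High in each mouse, with overlapping gates and a log2 fold change of -0.40 (SE 0.26, edgeR adjusted p = 0.851). Its level is a lower limit, because the antisense gene Gm26669 covers 55.9% of its exon bases and the unstranded count drops reads there. Gm26669 itself had at most 0.09 CPM.

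Of the IER genes, Ier2 (ENSMUSG00000053560.4, chromosome 8, 84661331 to 84662852, minus strand) had 380, 363 and 242 CPM in CD61High and 517, 560 and 530 CPM in CD61Low. The gates did not overlap, and the CD61Low libraries lay within a narrow range. The log2 fold change was -0.71 (SE 0.21, edgeR adjusted p = 0.676), or 1.63-fold higher in CD61Low, and -0.73 (SE 0.17, adjusted p = 0.0919) with the block. The difference was -0.44, -0.63 and -1.13 in mice 1, 2 and 3.

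Ier3 (ENSMUSG00000003541.6, chromosome 17, 35821684 to 35822923, plus strand), which encodes the ERK and survival modulator IEX-1, had 69.1, 63.1 and 53.6 CPM in CD61High and 85.9, 92.5 and 96.0 CPM in CD61Low. The gates did not overlap, and mouse 2 did not stand out. Its log2 fold change of -0.56 (SE 0.15) had the lowest unadjusted p of the 10 genes without the block, 0.00974, at an edgeR adjusted p of 0.656. With the block it was -0.57 (SE 0.15, adjusted p = 0.116).

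Ier5 (ENSMUSG00000056708.5, chromosome 1, 155096361 to 155099636, minus strand), known as a co-factor of heat-shock factor 1, had 53.1, 83.7 and 43.3 CPM in CD61High and 52.2, 166 and 44.2 CPM in CD61Low. The gates were almost level in mice 1 and 3, with differences of 0.03 and -0.03, and the difference of -0.99 in mouse 2 set the estimate. The log2 fold change was -0.54 (SE 0.57, edgeR adjusted p = 0.934), or -0.33 (SE 0.22, adjusted p = 0.440) with the block. Without the CD61Low library of mouse 2 it was 0.32, and without both libraries of that mouse -0.02.

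**Figure D2:**
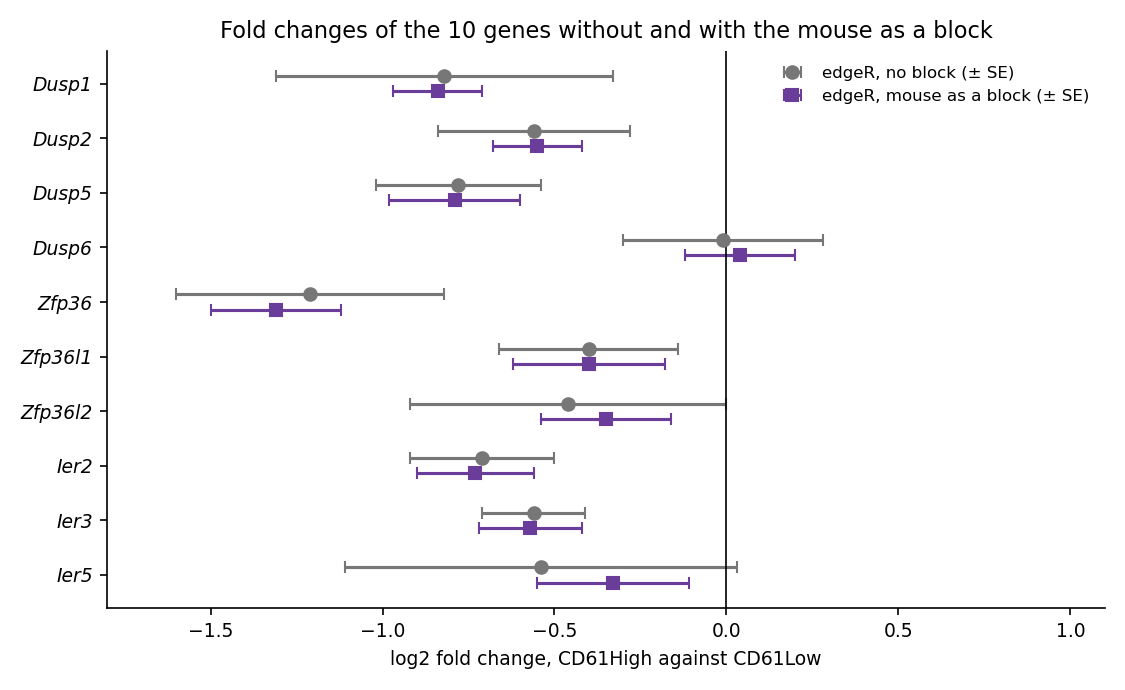
Log2 fold changes (horizontal axis, CD61High against CD61Low) of the 10 genes from edgeR without a block (grey circles) and with the mouse as a block (purple squares), with bars of 1 standard error. The bars of Dusp1, Zfp36 and Ier5 shorten with the block, from 0.49 to 0.13 for Dusp1, the estimate of Ier5 moves from -0.54 to -0.33, and Dusp6 sits at -0.01 and 0.04.

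The 10 genes differed in how their spread over the 6 libraries was divided between gate and mouse. Of the sum of squares of log2 CPM, the gate held 85.5% for Ier3, 76.9% for Dusp5, 75.4% for Ier2, 67.8% for Zfp36 and 51.6% for Zfp36l1, against a median of 14.1% over all genes tested. The mouse held 83.9% for Dusp6, 82.9% for Zfp36l2, 82.5% for Ier5, 63.3% for Dusp1 and 53.2% for Dusp2, against a median of 61.5%. The division was not sharp: the gate still held 35.9% for Dusp1 and 43.6% for Dusp2, and the mouse 44.5% for Zfp36l1. These shares describe 6 libraries and carry no test.

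The TATTTAT element did not sort the genes by their difference between the gates. The 6 genes with TATTTAT in the 3′ UTR had log2 fold changes from -1.21 to -0.40 without the block, and the 4 without it from -0.78 to -0.01, so that the ranges overlapped. Dusp5 and Zfp36, the genes with a CArG box among the 8 with a promoter window, were at -0.78 and -1.21. Dusp1, with the full cAMP response element, was at -0.82. Ier2 and Zfp36l2, whose promoters were not searched, were at -0.71 and -0.46.

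Several of the genes stood apart in mouse 2, in both directions. The mean CPM of mouse 2 over that of the other mice was 2.59 for Ier5, 2.18 for Dusp1, 1.59 for Zfp36 and 1.52 for Dusp6, and it was 0.467 for Zfp36l2 and 0.655 for Dusp2. Ier3, Ier2, Zfp36l1 and Dusp5 stood between 0.874 and 1.19. Neutrophil markers were at 8.33% and 13.4% of counts in that mouse and LT-HSC markers at 0.224% and 0.151%, and their part in these levels was not tested. The neutrophil share was also lower in CD61High in 3 of 3 mice. Its part in the gate differences of the 10 genes was not tested. In bulk samples, fewer cells of a type and less RNA per cell cannot be told apart. The median difference of the 10 genes was -0.42, -0.54 and -0.75 within mice 1, 2 and 3, against 0.00, -0.07 and -0.01 for all genes tested.

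**Figure D3:**
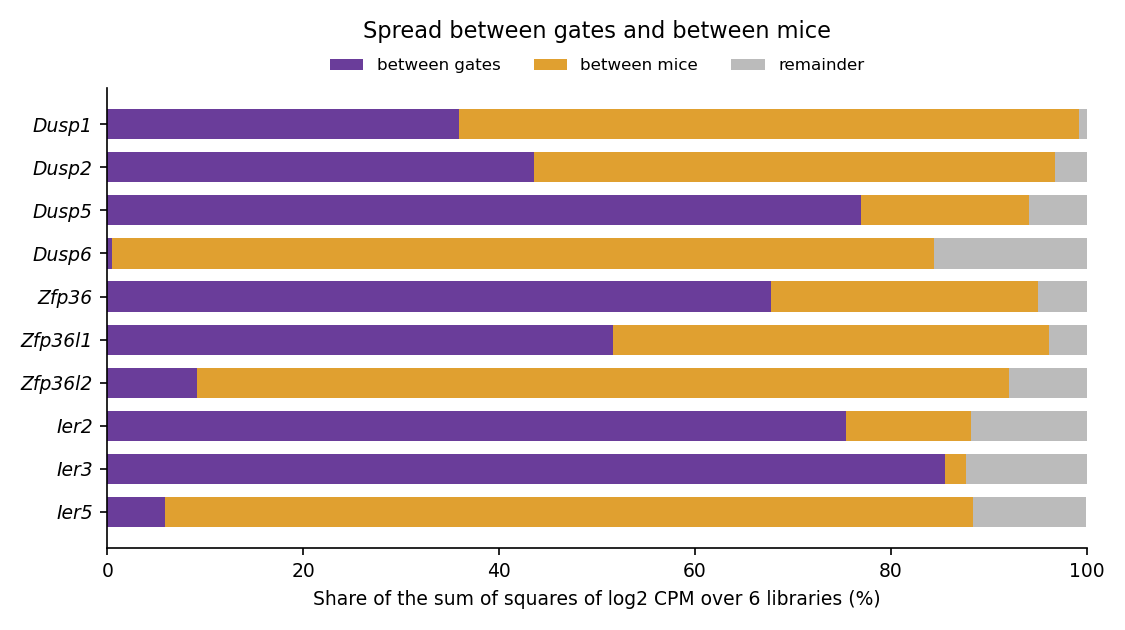
Share of the sum of squares of log2 CPM over the 6 libraries (horizontal axis, percent) that lies between the gates (purple), between the mice (orange) and in the remainder (grey) for each gene. The gate holds most for Ier3, Dusp5, Ier2, Zfp36 and Zfp36l1, and the mouse for Dusp6, Zfp36l2, Ier5, Dusp1 and Dusp2.

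Per kilobase of exon not shared with another gene, Ier2 and Zfp36l2 had the highest mean levels over the 6 libraries, at 284 and 262 RPKM (CPM divided by that length), with Ier2 above in 4 of 6. Zfp36 followed at 113, below Zfp36l2 in 5 of 6 libraries, and was above Dusp1 in all 6. Dusp1, Dusp2 and Ier3 stood close together at 77.4, 74.8 and 67.8. Dusp6 (38.9) was below Ier3 in all 6 libraries, Ier5 (22.5) below Dusp6 in all 6, and Ier5 above Dusp5 (11.4) in 4 of 6. Zfp36l1, at 6.96, was below Dusp5 in all 6. The ranges of neighbours in this order overlapped in each case. Within the ZFP36 family, Zfp36l2 had the highest level in all libraries but CD61Low of mouse 2. In CD61High it stood at 220 ± 64.1 RPKM (SD, n = 3) against 68.4 ± 33.9 for Zfp36 and 6.001 ± 0.912 for Zfp36l1. In CD61Low the values were 303 ± 159, 158 ± 33.1 and 7.92 ± 1.30 RPKM.

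Genes of the surrounding pathway were counted from lists chosen for their function, with earlier results of these data known. Their counts beside the shares of all genes are therefore a description and test no excess. Without the block, edgeR called 0 members of any of the 9 lists, as it called 0 genes in all. Of the other MAP kinase phosphatases, 3 of 6 were lower and 1 higher in CD61High in 3 of 3 mice, against 24.7% and 20.6% of all genes. None was called with the block. Dusp4, a nuclear phosphatase close to Dusp1 and Dusp2, had 26.0, 13.1 and 33.1 CPM in CD61High and 54.7, 17.3 and 70.5 CPM in CD61Low. It was at log2 -0.86 (SE 0.19, edgeR adjusted p = 0.0847) with the block and was the 1 gene of the list called without mouse 2 (adjusted p = 0.0246). Without mouse 2, 2.93% of all genes were called lower with the block. Dusp8 was at -1.56 (SE 0.38, adjusted p = 0.0961), with its highest CPM, 5.06 and 11.9, in mouse 2. Dusp9 had 2.41 to 2.59 CPM in CD61High and 0.198 to 2.20 CPM in CD61Low and was higher in CD61High in each mouse, at 1.42 (SE 0.66, adjusted p = 0.283).

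Of 14 tested feedback inhibitors of the ERK pathway, 6 were lower and 3 higher in 3 of 3 mice, against 24.7% and 20.6% of all genes. None was called with the block or without mouse 2. Spry4, a Sprouty inhibitor of receptor-to-Ras signalling, was at -1.15 (SE 0.26), and Sh2b3, which encodes the cytokine receptor adaptor LNK, at -0.56 (SE 0.13), with edgeR adjusted p of 0.0847 and 0.0908 with the block. Sh2b3 had 59.6, 70.1 and 67.4 CPM in CD61High and 96.8, 97.5 and 96.1 CPM in CD61Low, without overlap and with level values in the CD61Low libraries. Dok2, an adaptor that recruits Ras GTPase-activating protein, lay the other way, at 0.64 (SE 0.13, adjusted p = 0.0767) and higher in CD61High in each mouse.

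The kinases themselves had medians near that of all genes. The median blocked log2 fold change was -0.04 over 20 genes of the ERK cascade and -0.08 over 20 genes of the p38 and JNK cascade, with none called. In 3 of 3 mice, 8 genes of the ERK cascade were lower in CD61High and 2 higher. For the p38 and JNK cascade these counts were 6 and 2, where 24.7% and 20.6% of all genes were lower and higher. In the first list, Ksr1, a scaffold of the cascade, and Map2k1, the ERK kinase MEK1, were at -0.82 (SE 0.26) and -0.39 (SE 0.15), with edgeR adjusted p of 0.157 and 0.207. In the second, Mapk12, the p38 gamma kinase, had 9.55, 6.10 and 9.05 CPM in CD61High and 39.1, 14.5 and 41.3 CPM in CD61Low, without overlap. It was at -1.83 (SE 0.24, edgeR adjusted p = 0.0512) with the block, and it was called without mouse 2 at -2.13 (adjusted p = 0.0167), as was Map3k1, at -0.86 (adjusted p = 0.0453). In that fit 2.93% of all genes were called lower. With mouse 1 or mouse 3 left out instead, 0 of this list were called.

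The machinery that ZFP36 proteins recruit lay on both sides of 0. Of 22 genes of the CCR4-NOT complex and of decapping, 3 were lower and 7 higher in CD61High in 3 of 3 mice. Among all genes tested, 24.7% were lower and 20.6% higher. The list had a median of 0.04 with the block, with none called. Cnot9, a CCR4-NOT subunit, was at 0.59 (SE 0.20, edgeR adjusted p = 0.181) with the block and 0.85 (adjusted p = 0.0351) without mouse 2, where 1.85% of all genes were called higher. Of 11 other RNA-binding proteins of AU-rich elements and stem-loops, 3 were lower and 2 higher in 3 of 3 mice, with none called with the block. Tia1 and Elavl1, which bind AU-rich RNA, were at 0.53 (SE 0.14) and 0.30 (SE 0.12), with adjusted p of 0.108 and 0.240. Hnrnpd, of the same list, was at 0.45 (SE 0.19, edgeR adjusted p = 0.243) with the block. Without mouse 2 it was called higher, at 0.68 (adjusted p = 0.0468). The 12 PP2A subunits had a median of 0.08 with the block, with 1 lower and 3 higher in 3 of 3 mice and none called.

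Of 20 tested mRNAs known as targets of the ZFP36 family, 10 were lower and 3 higher in CD61High in 3 of 3 mice, against 24.7% and 20.6% of all genes, at a median of -0.46 with the block. Fos, an early-response transcription factor and such a target, fell by 1.53 on the log2 scale with the block (SE 0.17, edgeR adjusted p = 0.0446), and it is the 1 gene called in these lists; without the block it was at -1.42 (adjusted p = 0.726). The chemokines Ccl4 and Ccl3 were at -1.67 (SE 0.25) and -2.02 (SE 0.37), with adjusted p of 0.0529 and 0.0657. Ccl4 had 4.43, 5.89 and 3.95 CPM in CD61High and 11.9, 16.9 and 16.6 CPM in CD61Low, without overlap. Without mouse 2, 6 of 19 targets (Il1b, Ccl3, Ccl4, Ptgs2, Notch1 and Fos) were called lower and Cdk6 higher with the block, against 2.93% and 1.85% of all genes. With mouse 1 or mouse 3 left out instead, 0 were called. Neutrophils also express several of these mRNAs, and the part of the neutrophil transcripts, lower in CD61High in 3 of 3 mice, in these counts was not tested.

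Early-response transcription factors had the lowest median of the 9 lists, -0.83 with the block. In CD61High, 12 of 19 were lower and 1 higher in 3 of 3 mice, against 24.7% and 20.6% of all genes. Junb, a partner of Fos, had 295, 464 and 246 CPM in CD61High and 699, 807 and 705 CPM in CD61Low, at -1.19 (SE 0.18, edgeR adjusted p = 0.0543) with the block. Klf2 was at -1.21 (SE 0.16, adjusted p = 0.0512), with 83.4 and 186 CPM in CD61High and CD61Low of mouse 2 and 5.58 and 16.0 CPM in mouse 3. Without mouse 2, 7 of 18 (Fos, Jun, Junb, Jund, Egr1, Klf2 and Klf6) were called lower with the block, against 2.93% of all genes, and none higher. With mouse 1 or mouse 3 left out instead, 0 members of any of the 9 lists were called. The part of the neutrophil transcripts in the differences of these factors was not tested either.

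**Figure D4:**
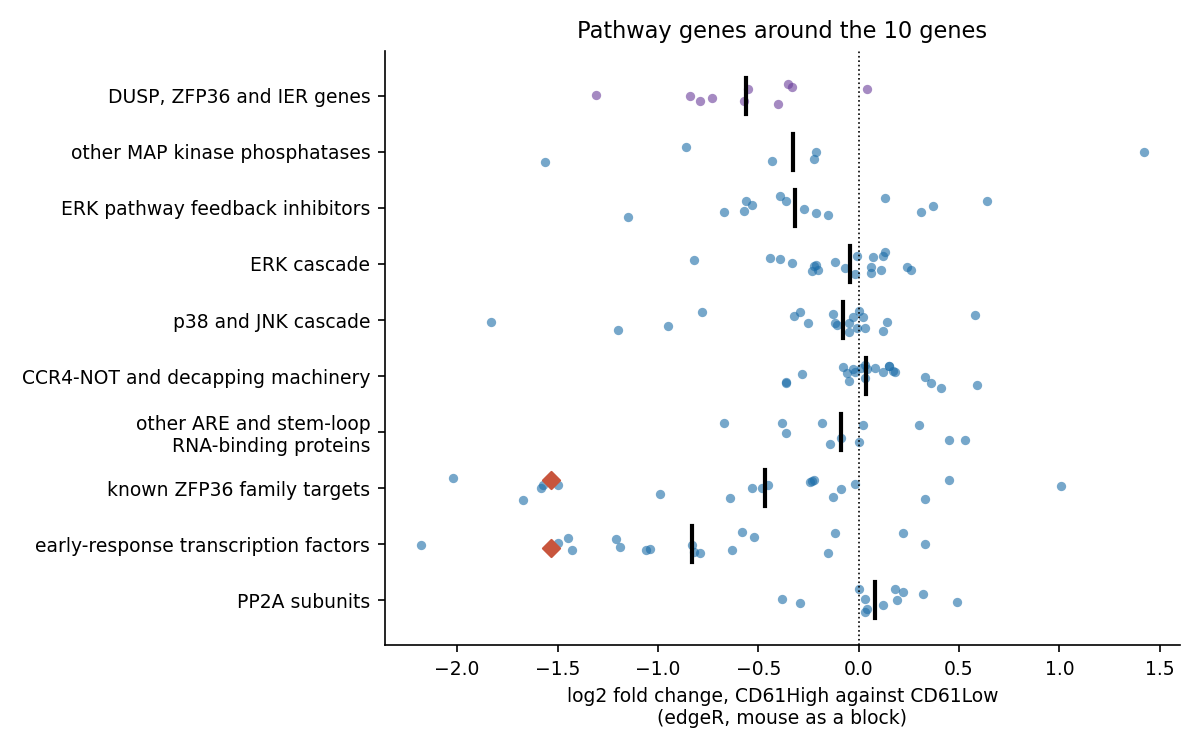
Log2 fold change with the mouse as a block (horizontal axis, CD61High against CD61Low) of each tested gene in the 10 feedback genes (top row, purple) and 9 pathway lists (blue). Black bars are medians and red diamonds the genes at an adjusted p under 0.05, which is Fos in both lists that hold it; the medians of the early-response factors, the feedback genes and the known targets lie lowest, at -0.83, -0.56 and -0.46.

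The 5 genes outside the set whose log2 CPM over the 6 libraries was most like the mean of the standardized values of the 10 genes were Tapbp (Pearson r = 0.995), Fam213b (0.992), Tinagl1 (0.990), Zfp217 (0.987) and Tep1 (0.986). The 6 libraries are 3 pairs and not independent, and these values are a description. Each of the 5 was lower in CD61High in 3 of 3 mice. This follows from how they were picked, as the mean of the 10 genes was itself lower in CD61High in each mouse. Tinagl1 had 65.8, 80.4 and 40.8 CPM in CD61High and 125, 155 and 109 CPM in CD61Low. Among the 10 genes, each of which is part of that mean, Zfp36 (0.973), Ier2 (0.972) and Ier3 (0.950) followed it most closely and Zfp36l2 (-0.021) and Dusp6 (0.230) least.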

How the data were processed

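The members and the gene lists were chosen with earlier results of these data known. SMART-Seq v4 turned 4 ng of RNA into cDNA and Nextera XT made libraries from 1 ng of it, per the labels' protocols; these kits keep no strand. The authors deposited raw counts of reads per gene for each library and a table of the series. The tools named in the submitters' processing notes are STAR 2.7, MultiQC and edgeR. The build is not given in the sources used here, nor is the annotation. All 55450 identifiers are those of GENCODE M21 (GRCm38), and 0 values of the series table differ from the unstranded library counts, which were used. Reads that name no gene stayed out: unmapped (4.36% to 10.9%), multimapping (10.0% to 15.6%), outside genes (2.88% to 4.21%) and ambiguous (3.55% to 4.37%).

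The gates were compared in R 4.3.3 by edgeR 4.0.16 (robust quasi-likelihood F-test, TMM, filterByExpr, two-sided, Benjamini-Hochberg adjustment over 15610 genes, called at adjusted p under 0.05), without a block; SE were derived from the F statistic. The mouse block, DESeq2 1.42.0, limma voom 3.58.1, other scalings, no filter and left-out libraries or mice were alternatives. CPM are TMM-adjusted, and log2 CPM and within-mouse differences (CD61High minus CD61Low) carry a prior count of 2. The pairing comes from the titles. Deviations from the gate means correlated at 0.236, 0.806 and 0.761 within mice 1, 2 and 3, and at -0.823 to 0.374 between mice. CD61High of mouse 1 was more like CD61Low of mouse 3 (0.374) than that of its own mouse (0.236). Deviations within a gate sum to 0, which lowers the values between mice, so these values do not settle the pairing. Of 266 list symbols, 264 matched. Named are the 10 genes, genes from the 3 per list with the smallest blocked p, and the 5 most alike with a mean of at least 5 CPM. No molecular identifiers were used, so counting error is a lower limit. Whether the libraries of a gate are separate animals rests on the titles alone.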

Additional observations from a re-analysis of the deposited data

How the results depend on the processing

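Of the 10 genes, 8 kept their sign in all 25 alternatives. Dusp6 did not: against -0.01 without a block, its log2 fold change was 0.12 with library sizes alone, 0.02 without the filter and 0.05 with limma voom. With the mouse as a replicate block it was 0.04, or 0.02 with DESeq2 or factors of relative log expression, 0.03 with upper-quartile scaling, 0.13 with library sizes alone, 0.08 without the filter and 0.04 with limma voom. Leaving out single libraries or mice moved Dusp6 between -0.21 and 0.34, with 0.20 without mouse 2, Ier5 between -0.86 and 0.32, Dusp1 between -1.36 and -0.37, and Zfp36l2 between -0.79 and -0.07. The number of genes called moved from 0 to 40 with the replicate block, 237 with DESeq2, and, with the block, 8 with upper-quartile scaling, 88 with factors of relative log expression, 747 without the filter, 1566 with DESeq2 and 489 with limma voom; without single libraries or mice it was 0 to 742, with 133 without mouse 2, 742 without mouse 2 and with the block, and 7 without mouse 3 and with the block. The number of the 10 genes called moved from 0 to 3 without the filter and with the block (Dusp1, Zfp36 and Ier2), 6 with DESeq2 and the block, 2 with limma voom and the block, and 0 to 3 when single libraries or mice were left out, with 3 only without mouse 2 and with the block. The cause was not tested. The fit with the block has 1 residual degree of freedom once a mouse is left out.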
